A study of Mus musculus with 43 samples.

Results

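The comparison described here is that of brain under dietary restriction (DR) with brain under ad libitum (AL) feeding in wild-type mice, WT DR against WT AL. Its members are the entries of the gene expression table with a quantification status of OK and at least 1 FPKM (fragments per kilobase of transcript, scaled for sequencing depth) in one of the 2 groups. There were 15486 such entries of 42349 in the table. The entry just inside the limit was Alox12b, with a larger value of 1.0002 FPKM, and the entry just outside was Gm28875, with 0.9997 FPKM. In 322 of the members one group was listed at 0, which leaves no ratio, so 15164 were tested. Of the 322, 255 were at 0 in WT AL and 67 in WT DR.

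All brain samples came from female mice of 15 months. WT mice carried the intact gene of insulin receptor substrate 1 (Irs1+/+), and the groups labelled KO are described as carrying a global deletion of it (Irs1-/-). WT AL mice (2 libraries) ate freely throughout, and WT DR mice (3 libraries) had 12 months of 30% DR with a daily meal in the late afternoon. The groups labelled KO AL and KO DR (3 libraries each) were fed in the same ways. The table holds 1 pooled value and a 95% interval for each group and no value per library, so the spread of a group was taken from its interval. Library depth is unknown from these values. The labels name the tissue as brain and give no region.

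DR lowers food intake without malnutrition and extends lifespan in many mouse strains. In brain, feeding state is read by hypothalamic neurons, and the monoamines dopamine, noradrenaline and serotonin, made by small groups of cell bodies in the midbrain and hindbrain, set motor drive, arousal and reward. Each monoamine neuron needs an enzyme chain to make its transmitter, a vesicular transporter to pack it and a plasma membrane transporter to take it back up, so a few transcripts mark these cells.

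**Figure D1:**
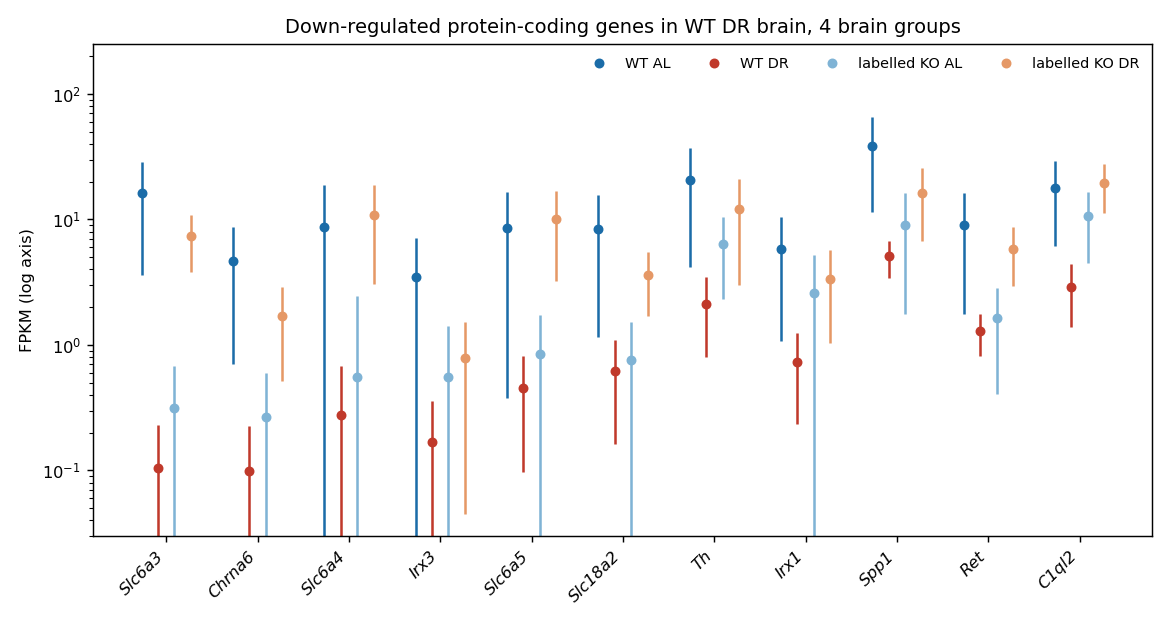
Levels of the 11 down-regulated single-gene entries of 200 bases or more. The x axis gives the gene, the y axis FPKM on a log scale, points the pooled value of each brain group and bars its 95% interval, drawn to the bottom of the plot where the lower bound is 0 or below the axis. WT DR is the lowest of the 4 groups for every gene shown, with Slc6a3 at 0.104 FPKM against 16.1 in WT AL.

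The samples had the transcripts of brain. Snap25, a synaptic vesicle fusion protein of neurons, was at 466 FPKM in WT AL, 507 in WT DR, 449 in KO AL and 612 in KO DR. Mbp, the myelin basic protein of oligodendrocytes, was at 3877 FPKM in WT AL, 1380.4 in WT DR, 4391 in KO AL and 3877 in KO DR. The microglial receptor Cx3cr1 was between 18.5 and 27.4 FPKM in the 4 groups, while Alb of liver reached at most 5.22 FPKM and Adipoq of fat cells 0.149 FPKM. Irs1, the deleted gene, was at 2.47 FPKM in WT AL (95% interval 0.793 to 4.16), 1.62 in WT DR (1.03 to 2.21), 3.49 in the group labelled KO AL (1.36 to 5.61) and 4.14 in the group labelled KO DR (2.41 to 5.87). It was not lower in the groups labelled KO, and which part of the gene the deletion removes was not given in the sources used here, so these levels are no check of the genotype labels. The diet difference of Irs1 in WT brain was -0.61 ± 0.56.

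Among the 15164 tested entries, 15 were up-regulated in WT DR brain (0.0989%) and 19 were down-regulated (0.125%) at a false discovery rate (FDR) of 10%, by a two-sided Wald test of the log2 ratio with Benjamini-Hochberg adjustment. Differences are given throughout as log2 of WT DR over WT AL, ± the standard error (SE). Outside these 34 entries, no difference given below for a gene in WT brain passed the FDR of 10%. The study's own test of these samples, at the same FDR, reports more genes in each direction. At an unadjusted p under 0.05 there were 142 higher entries (0.936%) and 195 lower ones (1.29%). The median difference over all tested entries was -0.08, and 55.6% of them were lower in WT DR. The precision was low, since the median SE was 0.80, and the WT AL group, with 2 libraries, supplied a median of 73.9% of the variance of a difference. Its median SD was 45.7% of the FPKM value, against 27.2% in WT DR. Other readings of the interval bound these counts. With the SD divided by the square root of the number of libraries, a smaller SE, 105 entries were up-regulated (0.692%) and 157 down-regulated (1.04%), among them all 34 called above. With a t reference of 3 degrees of freedom in place of the normal one, 0 entries passed by the Wald test, 55 had an unadjusted p under 0.05, and the lowest adjusted p was 0.233.

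Of the 34 called entries, 16 span under 200 bases, most of them transfer RNAs or spliceosomal, Y or small nucleolar RNAs. The class of Gm8034 and Gm14536 was not checked. Such entries made up 69 of those tested, and 23.2% of them were called, against 0.119% of the longer entries. In WT AL the SD of these 16 lay between 0.965% and 22.1% of the value, with a median of 7.37%, well under the 45.7% of all entries. Narrow intervals went with these calls, and their part in them was not tested. The results below turn on the 18 called entries of 200 bases or more, 6 higher and 12 lower in WT DR. Length here is the span of the entry on the genome. Snord49a, a small nucleolar RNA among the 18, also had narrow intervals, with an SD of 4.31% of the value in WT AL and 4.35% in WT DR. The 12 were Slc6a3, Chrna6, Slc6a4, Irx3, Slc6a5, Slc18a2, Th, Irx1, Spp1, Ret, C1ql2 and an entry that joins Snhg12 with its small nucleolar RNAs. The 6 were mt-Rnr1, mt-Nd3, Gm28438, Gm10925, Snord49a and an entry that joins Gas5 with its small nucleolar RNAs.

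**Figure D2:**
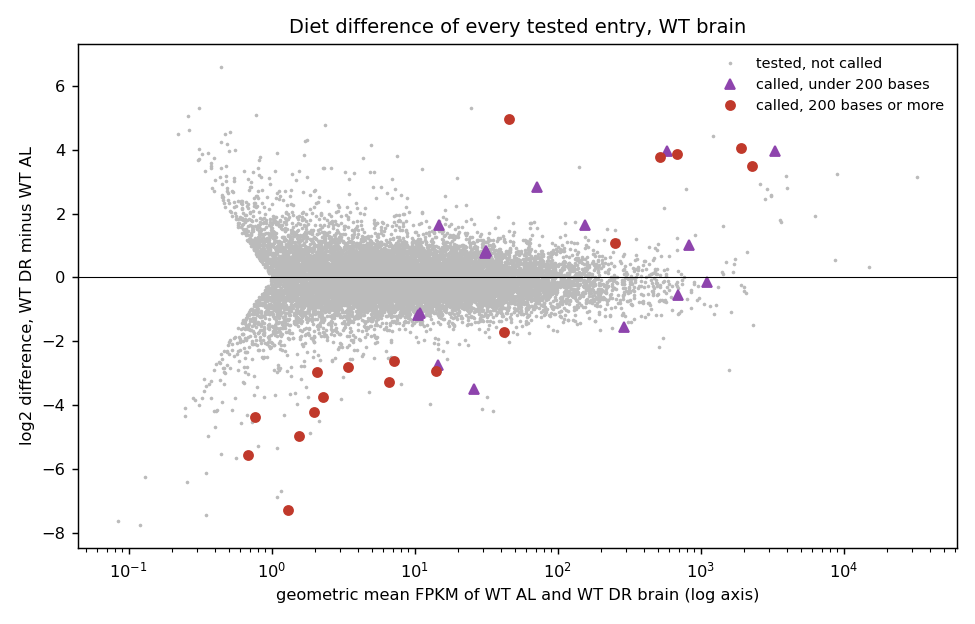
Diet difference of every tested entry in WT brain. The x axis gives the geometric mean FPKM of WT AL and WT DR on a log scale and the y axis log2 of WT DR over WT AL. Grey points did not pass the FDR of 10%, red circles are the 18 called entries of 200 bases or more and purple triangles the 16 shorter ones, which lie at -3.50 to 3.96.

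The promoters of the 4 down-regulated monoamine genes with an entry in the RefSeq promoter table (GRCm38.p6) are shown because these genes make, pack or take up the transmitters described below. Each sequence runs 5′ to 3′ on the gene's strand from 200 bases before to 10 bases after the annotated start, and capitals mark the cyclic AMP response element TGACGTCA, searched on both strands.
Th: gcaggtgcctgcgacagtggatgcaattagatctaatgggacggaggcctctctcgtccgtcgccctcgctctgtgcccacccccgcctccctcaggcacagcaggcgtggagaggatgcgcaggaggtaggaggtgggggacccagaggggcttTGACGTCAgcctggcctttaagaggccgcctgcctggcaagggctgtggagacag
Slc18a2: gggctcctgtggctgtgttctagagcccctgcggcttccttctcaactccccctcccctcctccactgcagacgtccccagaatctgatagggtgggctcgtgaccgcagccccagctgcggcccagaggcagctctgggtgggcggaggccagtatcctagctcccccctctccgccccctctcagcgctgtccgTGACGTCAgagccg
Slc6a3: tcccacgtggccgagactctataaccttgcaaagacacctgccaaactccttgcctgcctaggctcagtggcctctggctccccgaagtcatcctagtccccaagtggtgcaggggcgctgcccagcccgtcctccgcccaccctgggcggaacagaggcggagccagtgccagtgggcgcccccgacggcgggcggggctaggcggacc
Slc6a4: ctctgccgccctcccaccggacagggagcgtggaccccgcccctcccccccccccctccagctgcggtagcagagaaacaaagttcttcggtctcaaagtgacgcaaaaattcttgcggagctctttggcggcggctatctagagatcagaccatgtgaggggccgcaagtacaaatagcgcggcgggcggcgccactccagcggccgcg
They lie at chr7:142899986-142900195 (minus strand), chr19:59260678-59260887 (plus strand), chr13:73536547-73536756 (plus strand) and chr11:76998397-76998606 (plus strand). The element stood 45 bases before the start of Th and 4 bases before that of Slc18a2, across the start itself. It was absent from the windows of Slc6a3 and Slc6a4, and an absent match says only that these letters were not there. In windows of 250 bases before to 50 after the start, 1.79% of 32851 promoters held this element and 1.51% held the orphan receptor element AAAGGTCA, also searched on both strands. Of the 28 genes of the monoamine and midbrain dopamine lists, 22 had a promoter in the table, 2 held the first element and 1, Ddc, the second. No binding was measured in these samples.

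Among the entries past the FDR of 10%, the 3 with the largest decrease in brain of WT DR mice were Slc6a3, Chrna6 and Slc6a4, genes of monoamine neurons. Th and Slc18a2, which serve to make and pack these transmitters, fell as well. Slc6a3 encodes the dopamine transporter (chr13:73536747-73578672, GRCm38) and was at 16.1 FPKM in WT AL (95% interval 3.61 to 28.7), 0.104 in WT DR (0 to 0.231), 0.312 in the group labelled KO AL (0 to 0.676) and 7.34 in the group labelled KO DR (3.81 to 10.9). The intervals of WT AL and WT DR did not overlap, and WT DR and KO AL were both far below WT AL and KO DR. The diet difference in WT was -7.28 ± 1.04, a 155-fold lower level.

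Th, tyrosine hydroxylase, makes the precursor of dopamine and noradrenaline and is rate-limiting for both (chr7:142892752-142931128). It was at 20.6 FPKM in WT AL (95% interval 4.19 to 37), 2.13 in WT DR (0.803 to 3.46), 6.39 in the group labelled KO AL (2.34 to 10.4) and 12.1 in the group labelled KO DR (3.03 to 21.1). WT AL had the highest and WT DR the lowest level, with no overlap of their intervals, and the difference was -3.27 ± 0.73. Slc18a2, the vesicular monoamine transporter (chr19:59259512-59296012), was at 8.42 FPKM in WT AL (95% interval 1.15 to 15.7), 0.625 in WT DR (0.163 to 1.09), 0.763 in the group labelled KO AL (0 to 1.53) and 3.62 in the group labelled KO DR (1.7 to 5.54). The 2 WT intervals stood just apart, and the difference was -3.75 ± 0.82.

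Slc6a4 encodes the serotonin transporter (chr11:76998603-77032340) and was at 8.7 FPKM in WT AL (95% interval 0 to 18.8), 0.278 in WT DR (0 to 0.681), 0.559 in the group labelled KO AL (0 to 2.47) and 10.9 in the group labelled KO DR (3.07 to 18.6). Here the intervals of WT AL and WT DR overlapped, since that of WT AL reached 0, and the difference was -4.97 ± 1.34. This call was lost when differences were centred on their median, at an FDR of 5%, without a minimum FPKM or without the short entries, the last chosen after the data were seen. For 2 receptors of dopamine neurons WT DR was again the lowest group and KO AL the next. Chrna6, a nicotinic acetylcholine receptor subunit of dopamine neurons (chr8:27403214-27413944), was at 4.66 FPKM in WT AL (95% interval 0.701 to 8.62), 0.0983 in WT DR (0 to 0.225), 0.264 in the group labelled KO AL (0 to 0.602) and 1.7 in the group labelled KO DR (0.514 to 2.89), a difference of -5.57 ± 1.11. Ret, the receptor for glial cell line-derived factors that dopamine neurons carry (chr6:118151748-118197744), was at 9.0 FPKM in WT AL (95% interval 1.77 to 16.2), 1.3 in WT DR (0.82 to 1.77), 1.63 in the group labelled KO AL (0.408 to 2.84) and 5.8 in the group labelled KO DR (2.93 to 8.67), a difference of -2.79 ± 0.64. Its 2 WT intervals touched at 1.77 FPKM.

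As a group, 15 of the 17 tested monoamine genes (enzymes that make or break monoamines, and their transporters) were lower in WT DR, 4 of them past the FDR of 10% and 10 at an unadjusted p under 0.05, none in the other direction. Over all tested entries 55.6% were lower, 0.125% were down-regulated at this FDR and 1.29% were lower at an unadjusted p under 0.05. The median difference of the monoamine genes was -2.56, against -0.08 over all tested entries. Ddc, which turns the dopamine and serotonin precursors into the transmitters, was at 40.9 FPKM in WT AL and 6.93 in WT DR (-2.56 ± 0.74). Tph2, the first enzyme of serotonin synthesis in neurons and chosen after its values were seen, was at 10.2 FPKM in WT AL, 0.449 in WT DR, 0.706 in KO AL and 6.86 in KO DR (-4.51 ± 1.32). Neither passed. Hdc, which makes histamine, was at 6.14 FPKM in WT AL and 1.49 in WT DR (-2.05 ± 1.10). Enzymes present in most cells stood near the median of all entries, as in Maob, an oxidase of amines, at 6.52 FPKM in WT AL and 7.69 in WT DR, and Pts, of the cofactor pathway, at 9.37 FPKM in WT AL and 10.5 in WT DR. The study itself lists Th, Ddc, Dio3, Cited1, Hdc and Akr1b3 under catecholamine and phenol synthesis from these samples, so this list is not independent evidence of its direction. All 6 were lower in WT DR, and 1 of them was down-regulated at the FDR of 10%. With the smaller SE this number was 5.

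Of the 12 tested markers of midbrain dopamine neurons, 10 were lower, 5 of them past the FDR of 10% (Slc6a3, Chrna6, Slc18a2, Th and Ret), and the median was -3.03. Over all tested entries 55.6% were lower and 0.125% were down-regulated. Slc6a3, Slc18a2 and Th are also counted among the monoamine genes above, so the counts of these lists are not separate evidence. The transcription factor En1, which maintains midbrain identity and was chosen after its values were seen, was at 4.59 FPKM in WT AL, 0.0262 in WT DR, 1.4 in KO AL and 2.59 in KO DR (-7.45 ± 2.04). Aldh1a1, a retinaldehyde dehydrogenase of ventral dopamine neurons, was at 22.7 FPKM in WT AL and 9.49 in WT DR (-1.26 ± 0.55). Of the other markers, Foxa1, Foxa2 and Pitx3 were listed at 0 in WT DR and at 0.431 to 1.32 FPKM in WT AL. The dopamine receptor Drd2, which cells that receive dopamine also carry, was higher in WT DR, at 4.79 FPKM in WT AL and 8.64 in WT DR (0.85 ± 0.69). In whole tissue, fewer cells of a type and less RNA per cell cannot be told apart.

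Slc6a5, Irx3 and Irx1 also fell in WT DR. Slc6a5, the neuronal glycine transporter of brainstem and spinal cord (chr7:49910146-49963856), was at 8.49 FPKM in WT AL (95% interval 0.38 to 16.6), 0.457 in WT DR (0.0979 to 0.817), 0.854 in the group labelled KO AL (0 to 1.72) and 9.99 in the group labelled KO DR (3.23 to 16.8), a difference of -4.21 ± 0.89. The intervals of the 2 WT groups overlapped between 0.380 and 0.817 FPKM. Glra1, the main glycine receptor subunit of the adult brainstem, was at 9.19 FPKM in WT AL and 1.07 in WT DR and missed the FDR of 10% (-3.11 ± 0.86). Irx3, an Iroquois homeobox factor (chr8:91798525-91807539), was at 3.49 FPKM in WT AL (95% interval 0 to 7.17), 0.168 in WT DR (0 to 0.356), 0.554 in the group labelled KO AL (0 to 1.41) and 0.789 in the group labelled KO DR (0.0452 to 1.53), a difference of -4.38 ± 1.11. Irx1, of the same family (chr13:71957921-71963723), was at 5.79 FPKM in WT AL (95% interval 1.07 to 10.5), 0.737 in WT DR (0.234 to 1.24), 2.59 in the group labelled KO AL (0 to 5.21) and 3.37 in the group labelled KO DR (1.03 to 5.71), a difference of -2.97 ± 0.77. For both, WT DR was the lowest group, although the intervals of WT AL and WT DR overlapped. The call of Irx1 was lost at an FDR of 5% and without the short entries, and that of Irx3 with a pseudocount of 1 FPKM. Of 12 tested hindbrain and brainstem markers 11 were lower in WT DR, 1 past the FDR of 10% and 7 at an unadjusted p under 0.05, with a median of -1.81. Over all tested entries these shares were 55.6%, 0.125% and 1.29%. Vamp1, a synaptic vesicle protein abundant in brainstem and fast-spiking cells, was at 177 FPKM in WT AL and 55.4 in WT DR (-1.67 ± 0.66).

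Spp1 and C1ql2 completed the single-gene entries that fell. Spp1, osteopontin, a secreted phosphoprotein of activated microglia and some brainstem neurons (chr5:104435118-104441050), was at 38.6 FPKM in WT AL (95% interval 11.4 to 65.8), 5.09 in WT DR (3.4 to 6.78), 9.05 in the group labelled KO AL (1.77 to 16.3) and 16.3 in the group labelled KO DR (6.7 to 25.9). WT DR was the lowest group, and the difference was -2.92 ± 0.56. Its interval stood apart from that of WT AL but overlapped those of KO AL and KO DR. Spp1 was the only member of the microglial list to pass. The 19 tested microglial markers split into 9 higher and 10 lower, with a median of -0.08, and Tmem119, a surface protein of resident microglia, was at 21.2 FPKM in WT AL and 11.1 in WT DR (-0.93 ± 0.57). C1ql2, a secreted C1q-like synaptic organiser of dentate granule cells (chr1:120340582-120343174), was at 17.8 FPKM in WT AL (95% interval 6.12 to 29.4), 2.91 in WT DR (1.39 to 4.43), 10.6 in the group labelled KO AL (4.47 to 16.6) and 19.4 in the group labelled KO DR (11.3 to 27.5). WT DR was again apart from WT AL, and the difference was -2.61 ± 0.60. The remaining down-regulated entry of 200 bases or more joins Snhg12 with the small nucleolar RNAs in its introns, so its reads cannot be given to 1 gene. It was at 76 FPKM in WT AL, 23.2 in WT DR, 207 in KO AL and 30.3 in KO DR, a difference of -1.71 ± 0.41.

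Forebrain markers did not share a direction. All 14 tested genes of striatal projection neurons were higher in WT DR, with a median of 0.68, 0 passing the Wald test at the FDR of 10%, 2 at an unadjusted p under 0.05 and the same number with the smaller SE. Gpr6, a receptor of the indirect pathway, was at 4.68 FPKM in WT AL and 13.2 in WT DR (1.49 ± 0.67). Of 19 cortical excitatory markers 12 were higher, with a median of 0.52 and 3 at an unadjusted p under 0.05. Fezf2, which specifies deep-layer output neurons, was at 3.79 FPKM in WT AL (95% interval 0.248 to 7.33) and 14.6 in WT DR (10.4 to 18.7), a difference of 1.94 ± 0.70. Tbr1, a factor of layer 6 and early cortical neurons, was at 6.45 FPKM in WT AL and 22.1 in WT DR (1.78 ± 0.79). Thalamic markers were mostly lower, 10 of 12, with a median of -0.80 and 1 at an unadjusted p under 0.05. The 4 tested entries of the pituitary list included the hormones Prl, at 11.7 FPKM in WT AL and 0.10 in WT DR (-6.87 ± 2.19), and Gh, at 3.97 FPKM in WT AL and 0.0791 in WT DR (-5.65 ± 1.92). Neither passed, and Gh was listed at 0 in KO DR. Striatal and most cortical markers were thus higher in WT DR, while most thalamic markers, like most monoamine genes, were lower. The part that different shares of brain regions in the samples have in the results was not tested.

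**Figure D3:**
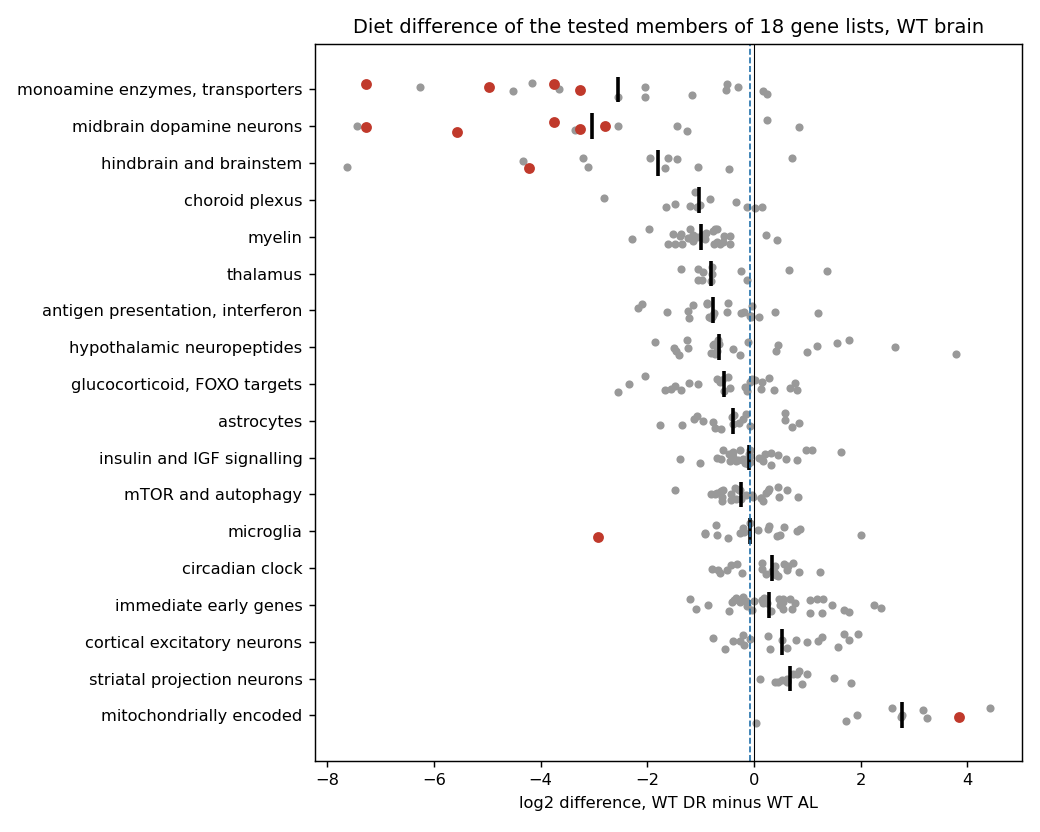
Diet differences of the tested members of 18 gene lists in WT brain. The x axis gives log2 of WT DR over WT AL, each row a list, grey points members that did not pass the FDR of 10%, red points members that did, black bars the list median and the dashed line the median of all tested entries (-0.08). The median runs from -3.03 for midbrain dopamine neurons to 2.77 for mitochondrially encoded genes.

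Myelin genes were lower in WT DR in 28 of 30 cases, with a median of -0.99, 0 past the FDR of 10% by the Wald test, 8 at an unadjusted p under 0.05 and 8 with the smaller SE. Their summed level was 7663 FPKM in WT AL, 3436 in WT DR, 7199 in KO AL and 7240 in KO DR, so WT DR was the lowest by a wide margin. Klk6, a protease of mature oligodendrocytes, was at 34.9 FPKM in WT AL (95% interval 5.41 to 64.3) and 7.1 in WT DR (2.05 to 12.1), a difference of -2.30 ± 0.80. Olig2, the lineage factor of oligodendrocytes, was at 31.6 FPKM in WT AL (95% interval 10.8 to 52.4) and 11 in WT DR (9.09 to 12.9), a difference of -1.52 ± 0.49, and Gjb1, the gap junction protein of myelin, at 49.5 FPKM in WT AL (95% interval 18.9 to 80.1) and 16.1 in WT DR (9.18 to 23.1), a difference of -1.62 ± 0.54. The WT intervals of Olig2 overlapped between 10.8 and 12.9 FPKM, and the WT DR value lay inside the interval of WT AL. Those of Gjb1 overlapped between 18.9 and 23.1 FPKM. Oligodendrocyte precursor markers had a median of -0.44, with 9 of 10 lower and 1 at an unadjusted p under 0.05.

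Astrocyte markers had a median of -0.40, with 15 of 19 lower and 2 at an unadjusted p under 0.05. Agt, angiotensinogen, which astrocytes secrete, was at 116 FPKM in WT AL (95% interval 38.9 to 194) and 34.4 in WT DR (19.1 to 49.6), a difference of -1.76 ± 0.58, and Gfap, their intermediate filament, at 187 FPKM in WT AL and 73.6 in WT DR (-1.34 ± 0.85). Choroid plexus markers were lower in 10 of 12 cases with a median of -1.04. Kcne2, a potassium channel subunit of that epithelium, was at 3.6 FPKM in WT AL and 0.51 in WT DR (-2.82 ± 1.09), and Ttr, its thyroid hormone carrier, at 164 FPKM in WT AL and 52.4 in WT DR (-1.65 ± 0.94). Vessel markers had a median of -0.45 over 17 genes, 12 of them lower. Red blood cell genes had a median of -0.05 over 5 genes in WT, with Hba-a1 at 295 FPKM in WT AL and 264 in WT DR. Their summed level was 1032 FPKM in WT AL and 971 in WT DR, but 9908 in KO AL and 3476 in KO DR, and all 5 genes were lower under DR in KO, with a median of -1.12. The part of this shift in the differences between genotypes was not tested. None of these lists had a member past the FDR of 10%.

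Hypothalamic neuropeptides and appetite regulators split, with 16 of 24 lower and 8 higher and a median of -0.67. Oxt, oxytocin, was at 2.01 FPKM in WT AL (95% interval 0 to 5.71), 27.7 in WT DR (13.1 to 42.4), 2.06 in the group labelled KO AL (0 to 4.58) and 27.5 in the group labelled KO DR (9.11 to 45.9), a difference of 3.79 ± 1.39. Between the groups labelled KO its diet difference was 3.74 ± 1.01, past the FDR of 10%. The difference between genotypes was -0.05 ± 1.71 and did not pass. Vip, a peptide of interneurons and the circadian clock nucleus, was at 2.57 FPKM in WT AL (95% interval 0 to 5.51) and 16 in WT DR (10.4 to 21.5), a difference of 2.63 ± 0.86. Npy, which in the arcuate nucleus drives feeding and is also abundant in cortical interneurons, was at 21.3 FPKM in WT AL (95% interval 2.34 to 40.2) and 62.5 in WT DR (38.8 to 86.2), a difference of 1.56 ± 0.70. Pomc, the precursor of satiety peptides and of pituitary corticotropin, was at 7.26 FPKM in WT AL (95% interval 0.628 to 13.9) and 2.0 in WT DR (0.61 to 3.38), a difference of -1.86 ± 0.83, and Mrap2, an accessory protein of the melanocortin-4 receptor, at 20.6 FPKM in WT AL (95% interval 7.07 to 34.2) and 7.27 in WT DR (4.44 to 10.1), a difference of -1.50 ± 0.55. None of the 5 passed the FDR of 10% in WT brain by the Wald test, 3 genes of this list were higher and 2 lower at an unadjusted p under 0.05, and with the smaller SE these counts were the same.

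Activity-dependent immediate early genes, which neurons induce within minutes of firing, were higher in WT DR in 25 of 38 cases. Their median was 0.27, with 0 past the FDR of 10%, 8 higher and 0 lower at an unadjusted p under 0.05, and 6 higher with the smaller SE. Npas4, a factor induced by calcium entry, was at 1.09 FPKM in WT AL (95% interval 0 to 2.18), 5.67 in WT DR (3.46 to 7.89), 4.86 in the group labelled KO AL (1.84 to 7.88) and 3.08 in the group labelled KO DR (1.32 to 4.83), a difference of 2.38 ± 0.78. Its WT intervals did not overlap, and WT AL was the lowest of the 4 groups. Plk2, a kinase of synaptic scaling, was at 12.3 FPKM in WT AL (95% interval 2.75 to 21.9), 42.2 in WT DR (28.7 to 55.7), 20.8 in the group labelled KO AL (9.23 to 32.4) and 19.9 in the group labelled KO DR (11.3 to 28.5), a difference of 1.78 ± 0.61. WT DR was the highest group, and its interval overlapped that of KO AL. Homer1, a postsynaptic scaffold with an inducible short form, was at 9.01 FPKM in WT AL (95% interval 2.08 to 15.9) and 29 in WT DR (17.3 to 40.7), a difference of 1.69 ± 0.63. Nr4a1, an inducible orphan receptor, was at 9.55 FPKM in WT AL (95% interval 2.73 to 16.4) and 26.3 in WT DR (16.6 to 36), a difference of 1.46 ± 0.58. Fos, the most used marker of recent firing, was close between the groups at 11.8 FPKM in WT AL and 13.1 in WT DR (0.14 ± 0.68), and Bdnf, a neurotrophin, was lower at 8.24 FPKM in WT AL and 3.87 in WT DR (-1.09 ± 0.59). The 6 genes that the study lists under learning or memory from these samples were all higher, and 5 of them passed with the smaller SE, which is not independent evidence of their direction. Camk4, a nuclear calcium-dependent kinase, was one of them, at 4.21 FPKM in WT AL (95% interval 1.49 to 6.93) and 13.1 in WT DR (7.93 to 18.2), a difference of 1.63 ± 0.54. The study's 10 genes of positive regulation of biosynthesis share Camk4, Egr1, Mef2c and Plcb1 with that list, and 9 of the 10 passed with the smaller SE and 0 with the SE used here.

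Mitochondrial entries of 200 bases or more were higher in WT DR brain, while the shorter transfer RNAs went both ways. Entries on the mitochondrial genome took 7.88% of the summed FPKM in WT AL, 33.6% in WT DR, 28.2% in the group labelled KO AL and 12.1% in the group labelled KO DR, while the summed FPKM of all nuclear entries was 463073, 457196, 589490 and 521030 in the same order. The single entry mt-Tm, a methionine transfer RNA under 200 bases that did not pass the FDR of 10%, held 27.8% of the mitochondrial sum in WT AL, 41.9% in WT DR, 33.9% in KO AL and 38.8% in KO DR. Counted over entries of 200 bases or more alone, the mitochondrial share was 3.22% in WT AL, 19.0% in WT DR, 14.7% in KO AL and 4.0% in KO DR. The small ribosomal RNA mt-Rnr1 (chrMT:70-1024) was at 678 FPKM in WT AL (95% interval 217 to 1139), 7624 in WT DR (1944 to 13304), 6936 in the group labelled KO AL (524 to 13347) and 939.8 in the group labelled KO DR (474 to 1405). WT DR and KO AL stood high and WT AL and KO DR low, and the difference in WT was 3.49 ± 0.73. mt-Nd3, a subunit of complex I of the respiratory chain (chrMT:9459-9806), was at 178 FPKM in WT AL (95% interval 50.7 to 305), 2565 in WT DR (944 to 4186), 1187 in the group labelled KO AL (494 to 1879.6) and 154 in the group labelled KO DR (80.1 to 229). The intervals of the 2 WT groups were far apart, and the difference was 3.85 ± 0.69. These were the called entries among the 13 tested mitochondrial entries of 200 bases or more. All 13 were higher in WT DR, with a median of 2.78, and 6 passed with the smaller SE. For some the SE exceeded the difference, as for mt-Nd1 at 1.94 ± 13.11, mt-Nd2 at 4.43 ± 9.87 and mt-Nd6 at 0.04 ± 10.48. The transfer RNA mt-Tq is counted among the 13, because its entry is listed over the same 1092 bases as mt-Nd1. mt-Cytb of complex III was at 1109 FPKM in WT AL (95% interval 116 to 2103) and 7622 in WT DR (299.6 to 14945), a difference of 2.78 ± 0.95, and mt-Co2 of complex IV at 1266 FPKM in WT AL (95% interval 239 to 2293) and 7557 in WT DR (184 to 14931), a difference of 2.58 ± 0.92.

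**Figure D4:**
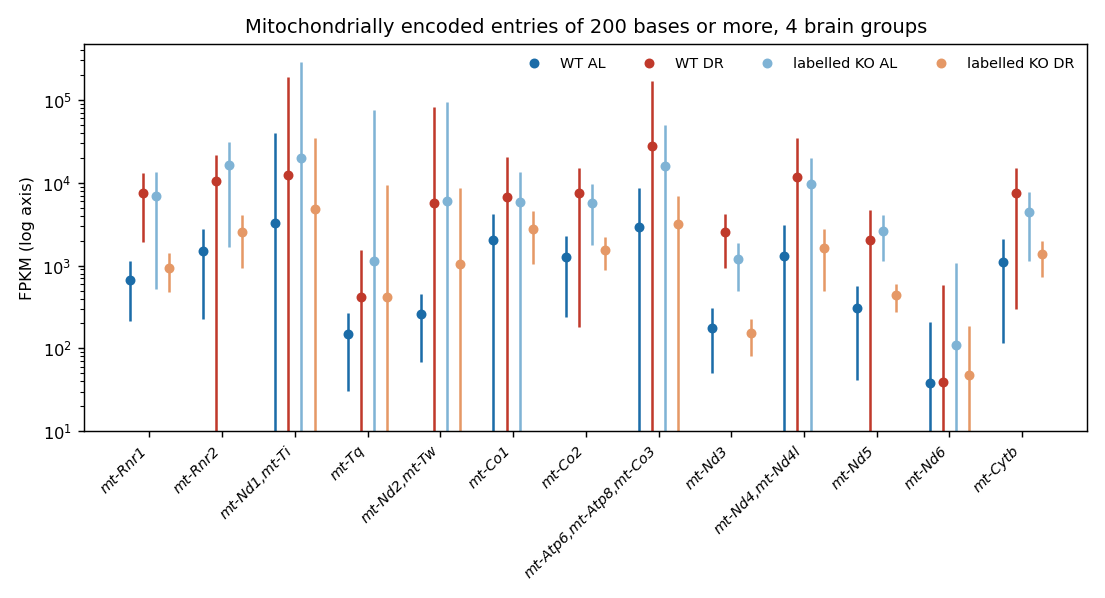
Levels of the 13 tested mitochondrial entries of 200 bases or more in the 4 brain groups. The x axis gives the entry in genome order, the y axis FPKM on a log scale, points the pooled group value and bars the 95% interval, drawn to the bottom of the plot where the lower bound is 0 or below the axis. For mt-Nd3 WT DR is at 2565 FPKM and KO AL at 1187, above WT AL at 178 and KO DR at 154.

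Among the other up-regulated entries of 200 bases or more, Gm28438 and Gm10925 lie on chromosome 1 and copy mitochondrial genes. Of the 21-base words of the Gm28438 transcript 99.1% are found in mt-Nd3, and all of those of Gm10925 in mt-Atp6, so their reads cannot be told apart from mitochondrial ones. Their differences were 3.77 ± 0.69 and 4.05 ± 1.09, the latter lost at an FDR of 5%, without a minimum FPKM and without the short entries. Gas5, a host transcript of small nucleolar RNAs that accumulates when growth stops, is joined with them into 1 entry, at 8.11 FPKM in WT AL (95% interval 0 to 21.9), 254 in WT DR (227 to 281), 442 in the group labelled KO AL (0 to 1322) and 112 in the group labelled KO DR (93.8 to 131) (4.97 ± 1.23, up-regulated). The difference rests on WT AL, whose value is low and whose lower bound is 0. Snord49a, listed over 1931 bases with its host, was at 172 FPKM in WT AL (95% interval 157 to 186) and 365 in WT DR (333 to 397) (1.09 ± 0.09, up-regulated). Of the 16 called entries under 200 bases, 9 were higher and 7 lower in WT DR. Of the 7 mitochondrial ones among them, 4 were higher and 3 lower. The lower ones were the transfer RNAs mt-Tp at -1.55 ± 0.03, mt-Tr at -0.54 ± 0.02 and mt-Td at -0.15 ± 0.02, while Rny1, a Y RNA, was at 26.8 FPKM in WT AL (95% interval 21.4 to 32.1) and 191 in WT DR (6.27 to 376).

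Lists of nutrient response held no call at this precision. None of the 33 tested genes of insulin and IGF signalling, the 28 of mTOR signalling and autophagy, the 28 of fatty acid and sterol synthesis, the 23 of ketone and fatty acid oxidation or the 21 of the circadian clock passed the FDR of 10% by the Wald test, and 0 had an unadjusted p under 0.05 or passed with the smaller SE. Their medians were -0.10, -0.25, -0.16, -0.06 and 0.33. Irs4, a substrate of the insulin receptor in hypothalamus, was at 5.51 FPKM in WT AL and 2.11 in WT DR (-1.39 ± 0.72), Thrsp, a lipogenic regulator, at 30 FPKM in WT AL and 13.2 in WT DR (-1.19 ± 0.63) and the clock factor Npas2 at 2.83 FPKM in WT AL and 6.64 in WT DR (1.23 ± 0.81).

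Genes induced by glucocorticoids or FOXO factors were lower in 21 of 29 cases, with a median of -0.56, 0 past the FDR of 10%, 7 lower at an unadjusted p under 0.05 and 5 with the smaller SE. Cdkn1a, an inhibitor of the cell cycle, was at 27.7 FPKM in WT AL (95% interval 6.49 to 48.9), 6.72 in WT DR (5.0 to 8.45), 31 in the group labelled KO AL (6.4 to 55.6) and 29.9 in the group labelled KO DR (12.8 to 47), a difference of -2.04 ± 0.58. WT DR was the lowest group, although its interval overlapped those of WT AL and KO AL. Tsc22d3, the glucocorticoid-induced leucine zipper, was at 87.7 FPKM in WT AL (95% interval 27.2 to 148) and 29.7 in WT DR (18.8 to 40.7), a difference of -1.56 ± 0.56. In the interferon and antigen presentation list 21 of 24 genes were lower with a median of -0.76, among them Bst2, tetherin, at 7.11 FPKM in WT AL and 1.57 in WT DR (-2.18 ± 0.80), and Isg15, a ubiquitin-like modifier, at 6.26 FPKM in WT AL and 1.46 in WT DR (-2.10 ± 0.90). B2m, the light chain of class I molecules, was higher, at 42.5 FPKM in WT AL and 96.9 in WT DR (1.19 ± 0.55). Hspa1a, the inducible heat shock protein, was at 13.9 FPKM in WT AL and 5.24 in WT DR (-1.41 ± 0.56), and 21 of 30 chaperone genes were lower with a median of -0.27. Dio3, which inactivates thyroid hormone, was at 8.76 FPKM in WT AL (95% interval 1.01 to 16.5) and 1.5 in WT DR (0.503 to 2.49), a difference of -2.55 ± 0.80, and Cyp26b1, which degrades retinoic acid, at 6.46 FPKM in WT AL (95% interval 2.21 to 10.7) and 2.01 in WT DR (1.14 to 2.87), a difference of -1.69 ± 0.57. Of the Wnt genes, Sfrp5, a secreted antagonist, was at 13.5 FPKM in WT AL (95% interval 3.19 to 23.9) and 4.4 in WT DR (1.94 to 6.85), a difference of -1.62 ± 0.68. The study's own test reports Sfrp5 as down-regulated in WT DR brain. Wnt3, a ligand, was at 3.93 FPKM in WT AL and 1.17 in WT DR (-1.75 ± 0.71), and Dkkl1, a Dickkopf-like secreted protein, at 2.26 FPKM in WT AL and 12.6 in WT DR (2.48 ± 0.97).

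**Figure D5:**
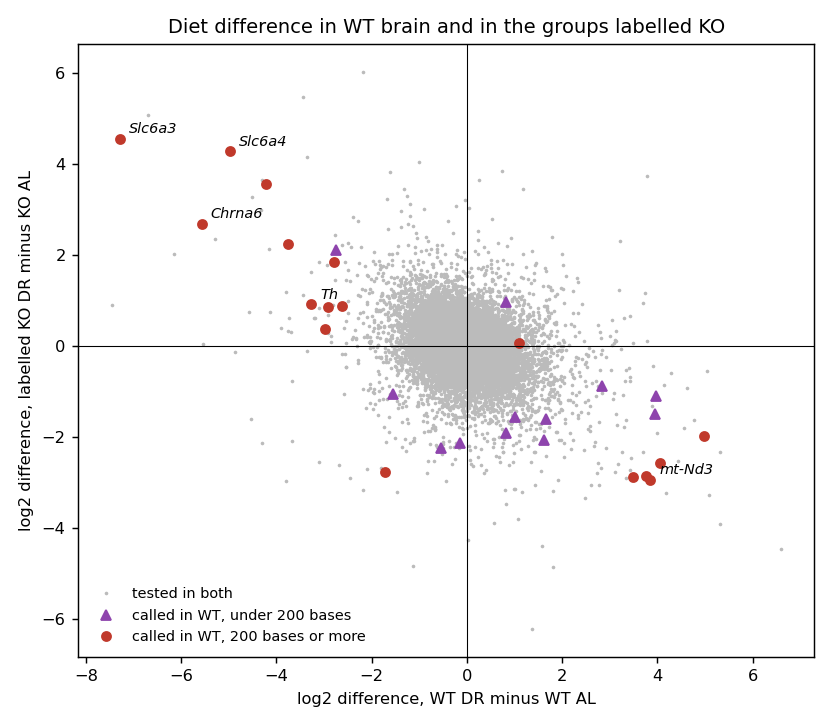
Diet difference in WT brain (x axis, log2 of WT DR over WT AL) and between the groups labelled KO (y axis, log2 of KO DR over KO AL) for the entries with both values. Grey points are all entries, red circles entries of 200 bases or more called in WT and purple triangles shorter ones. Of 17 red circles 15 have opposite signs on the 2 axes, as Slc6a3 with -7.28 and 4.56.

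The same diets in the groups labelled KO, which share no sample with the WT groups, gave differences of the opposite sign for most of these genes. Between them 22 of 15349 tested entries were up-regulated under DR (0.143%) and 34 were down-regulated (0.222%). Over 14670 entries with both values, 60.8% had opposite signs, and across entries, which are not independent replicates, the 2 diet differences had a Pearson r of -0.33 and a Spearman rho of -0.29. Among the 29 entries called in WT with a value in KO, 23 had the opposite sign, and 15 of 17 did among those of 200 bases or more. KO DR was above KO AL in 11 of the 12 longer entries down-regulated in WT, and below it in 5 of the 6 up-regulated ones.

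The difference between the 2 diet differences (KO minus WT) was tested for 15101 entries, and 60 passed the FDR of 10% (0.397%), 23 with a higher and 37 with a lower response in KO. Of the 34 entries called in WT, 30 could be tested and 16 passed, 8 up-regulated and 8 down-regulated in WT. The test holds the same WT difference by which these entries were called, so this count is not independent evidence of a genotype difference. Among those that passed, the KO difference of Slc6a3 was 4.56 ± 0.91 and the difference between genotypes 11.83 ± 1.38. For Slc6a5, which passed, the KO difference was 3.55 ± 0.88 and the difference between genotypes 7.76 ± 1.25. Of the others that passed, Th was at 0.92 ± 0.71 in KO, a difference between genotypes of 4.19 ± 1.02. Spp1 was at 0.85 ± 0.72 in KO, a difference between genotypes of 3.77 ± 0.91. For Th and Spp1 the KO difference alone did not pass the FDR of 10%. In the other direction, mt-Nd3 passed and was at -2.94 ± 0.55 in KO, a difference between genotypes of -6.79 ± 0.88. Slc6a4, Irx3 and Irx1 did not pass this test, at 9.25 ± 2.85 for Slc6a4, 4.89 ± 1.71 for Irx3 and 3.35 ± 1.17 for Irx1.

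The medians of several lists turned with the genes. Others kept their sign, among them the circadian clock list at 0.33 in WT and 0.25 in KO, and the liver list at 1.37 in WT and 1.99 in KO. In KO the monoamine genes had a median difference of 0.92, with 12 of 15 higher under DR, against -2.56 in WT. The 14 striatal genes were all lower under DR in KO, with a median of -0.71, against 0.68 in WT. The 12 thalamic genes were all higher, with a median of 0.62, against -0.80 in WT. The 13 longer mitochondrial entries were all lower, with a median of -2.33, some with an SE above the difference, as mt-Nd1 at -2.06 ± 10.57. For myelin the KO median was 0.27, with 24 of 30 higher. Immediate early genes had a KO median of -0.09, and Junb, an AP-1 factor chosen after its values were seen, was at 22.1 FPKM in WT AL, 50.2 in WT DR, 106 in KO AL and 42.8 in KO DR, a difference between genotypes of -2.49 ± 0.68, which passed. For the monoamine, striatal, thalamic and mitochondrial lists the summed levels of WT AL and KO DR stood on one side and those of WT DR and KO AL on the other. Whether samples were exchanged between groups or dissected differently was not tested, since the table holds no value per library, and every diet and genotype difference given here is one between groups as labelled. The mitochondrial entries and the regional markers are themselves among the diet differences described. Their part in the diet differences of other genes was not tested in either genotype.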

How the data were processed

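Poly(A)-selected RNA was sequenced on an Ion Proton instrument. The authors trimmed reads with cutadapt (version 1.5), removed low-quality ends, mapped to GRCm38 with BBmap and quantified genes with Cuffdiff (version 2.2.1), per the labels and the methods of the study. The deposited FPKM values and their 95% bounds are 1 pooled value per group for 16 groups, so no value per library was used, and library depth is unknown. Entries that join several genes were kept as deposited.

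The SD of a group was taken as the distance from FPKM to its upper bound divided by 2, and the SE of a log2 ratio followed by the delta method. Each ratio was tested by a two-sided Wald test with a normal reference (Python 3.11.15, numpy 2.4.6, pandas 2.3.3, scipy 1.17.1) and Benjamini-Hochberg adjustment (statsmodels 0.14.6) over all entries tested, without pseudocount, at an FDR of 10%. The p-values measure the spread that Cuffdiff gave each group, which may be partly technical. With 2 or 3 libraries a group and no values per library an exact test was not possible, so calls are given and p-values of single genes are not printed. The difference of the 2 diet differences was tested in the same way. Scripts were tested on simulated data.

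Genes were named as all called entries (up to 25 in each direction), from each of 39 lists the called members and then up to 4 by size of the Wald statistic, Irs1, Sfrp5 and the genes of the study's own lists. The members and lists were chosen with earlier results of these data known. Promoters came from RefSeq (GRCm38.p6). Alternatives covered the FDR, the SE, the reference distribution, a pseudocount, the minimum FPKM, centring, joined entries and non-overlapping intervals, and the omission of entries under 200 bases was chosen after seeing the data.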

Additional observations from a re-analysis of the deposited data

Results flagged for a closer look

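The results in this section are entries whose diet difference was not the same in the 2 genotypes, by the Wald test of the KO difference minus the WT difference at the FDR of 10%. All values are that difference on the log2 scale.

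Among genes of monoamine neurons, midbrain and hindbrain it was 11.83 for Slc6a3, 8.26 for Chrna6, 7.76 for Slc6a5, 6.0 for Slc18a2, 4.96 for Glra1, 4.63 for Ret, 4.41 for Ddc and 4.19 for Th. The developmental factor En2 was at 5.44. A further 4 genes were chosen after their values were seen: Rln3, a peptide of the brainstem nucleus incertus, at 11.78, En1 at 8.34, Tph2 at 7.79 and Lrrc17, a secreted leucine-rich protein, at -6.68. Rln3 was at 11.9 FPKM in WT AL, 0.114 in WT DR, 0.199 in KO AL and 6.73 in KO DR. Lrrc17 stood apart through 1 group, at 4.13 FPKM in WT AL, 14.5 in WT DR, 448 in KO AL and 15.3 in KO DR.

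Secreted and matrix proteins were at 3.77 for Spp1, 3.49 for C1ql2 and 3.11 for Dmp1, a matrix phosphoprotein. Igfbp6, a binding protein for insulin-like growth factors, was at -3.06, with 16.3 FPKM in WT AL, 34.9 in WT DR, 86.7 in KO AL and 22.1 in KO DR. Fezf2 was at -3.20, Nr4a1 at -2.88 and Junb at -2.49.

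Mitochondrial entries and their chromosome 1 copies were at -6.79 for mt-Nd3, -6.37 for mt-Rnr1, -5.33 for mt-Nd5, -4.46 for mt-Cytb, -4.45 for mt-Co2, -5.46 for the joined mt-Tl2 and mt-Ts2, -3.26 for mt-Th, -6.64 for Gm28438 and -6.63 for Gm10925. The joined Gas5 entry was at -6.95. Gm25452, a small nucleolar RNA copy under 200 bases, was at -2.73.

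Ribosomal protein genes, chosen after their values were seen, were at -4.30 for Rpl37a, -3.52 for Rpl37, -3.13 for Rpl39 and -3.12 for the entry that joins Rpl10 with Snora70. Rpl37a was at 8.93 FPKM in WT AL, 42.1 in WT DR, 55.2 in KO AL and 13.2 in KO DR.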

How the results depend on the processing

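No paired analysis was possible because the table holds 1 pooled value per group, and for the same reason no library could be left out. In WT brain the 15 higher and 19 lower calls became 105 and 157 with the SD divided by the square root of the number of libraries, and 0 and 0 with the t reference (55 at an unadjusted p under 0.05). The higher calls numbered 27 with a pseudocount of 1 FPKM and 82 by intervals that do not overlap. Without entries under 200 bases, chosen after seeing the data, there were 5 higher and 10 lower calls. For the difference between genotypes, 23 entries with a higher KO response became 14 at an FDR of 5%, and 23 and 37 became 475 and 337 with the smaller SE and 0 and 2 with the t reference. Between the groups labelled KO, 22 higher and 34 lower calls became 300 and 364 with the smaller SE, 3 and 4 with the t reference and 59 and 52 by intervals that do not overlap, and the lower calls numbered 19 without entries under 200 bases. Other settings kept each count within 1.5 times. Of the 18 longer calls in WT, 18 remained with the smaller SE, 17 with centring, 17 with a pseudocount, 16 without a minimum FPKM, 15 at an FDR of 5% and 12 by non-overlapping intervals. Among all named genes 1 changed sign, Hbb-bs, at 0.034 when differences were centred. The WT AL group, with 2 libraries, supplied a median of 73.9% of the variance of a difference in WT.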

Other observations

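Several cell classes and regions remained outside the comparisons above, and 0 of their tested members passed the FDR of 10% by the Wald test unless stated. Interneuron markers split, with 9 of 15 higher and 6 lower in WT DR and 2 in each direction at an unadjusted p under 0.05. Pvalb, the calcium buffer of fast-spiking cells, was at 56.5 FPKM in WT AL, 18.5 in WT DR, 58 in KO AL and 104 in KO DR (-1.61 ± 0.56), and Calb2, calretinin, at 62 FPKM in WT AL and 24 in WT DR (-1.37 ± 0.56), both lower in WT DR, while Vip and Calb1 were higher. Receptor subunits for glutamate, GABA and glycine were higher in 25 of 40 cases, with a median of 0.24 and 1 lower at an unadjusted p under 0.05, Glra1. Gabra5, a hippocampal GABA receptor subunit, was at 6.94 FPKM in WT AL and 15.3 in WT DR (1.14 ± 0.59). In the cerebellar list 6 of 13 were higher, with Itpr1, the calcium release channel of Purkinje cells, at 15.8 FPKM in WT AL and 36.3 in WT DR (1.20 ± 0.59). In the olfactory bulb list 4 of 8 were lower, of which Th passed.

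Meningeal and matrix genes had 9 of 17 lower, with Spp1 past the FDR of 10% and Dmp1 at 5.6 FPKM in WT AL and 1.85 in WT DR (-1.60 ± 0.52). In the ependymal list 4 of 7 were lower, with Tppp3, a tubulin-binding protein of ciliated cells, at 201 FPKM in WT AL and 80 in WT DR (-1.33 ± 0.57). Thyroid hormone and retinoid genes had 11 of 17 higher and 3 lower at an unadjusted p under 0.05. Of 27 Wnt genes 18 were lower, 3 of them at an unadjusted p under 0.05, and 1 higher gene was. Of 7 tested liver genes 6 were higher in WT DR and Ttr, which choroid plexus also makes, was lower. The liver list summed to 173 FPKM in WT AL, 75.9 in WT DR, 51.9 in KO AL and 296 in KO DR. All 3 tested muscle genes were higher in WT DR, and the muscle list summed to 3.73 FPKM in WT AL, 14.7 in WT DR, 44.6 in KO AL and 10.8 in KO DR. In the fat cell list, the only tested gene, Lpl, was at 2.04 FPKM in WT AL and 3.32 in WT DR (0.70 ± 0.78).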
